A study of Mus musculus with 6 samples.

Results

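The genes of the piRNA pathway, the germline defence against transposons, were followed in RNA-seq of mouse ES cells moved from serum to 2i+vitC. They were taken by name from a list of 10 genes, Dazl, Ddx4, Mael, Asz1, Piwil2, Tdrd1, Tdrd9, Tdrkh, Mov10l1 and Tex19.1. Of these, 8 had a row among the 12626 genes in the tables, and Tdrd1 and Tdrd9 were not analysed here. The samples were the WT J1 line at D0, D6 and D13, 6 in all, as 2 biological replicates of each day. J1 is a mouse embryonic stem cell line, here grown without feeders on gelatin, and all samples received LIF. D0 cells were in serum, and D6 and D13 cells had spent 6 and 13 days in 2i, a serum-free medium with the Gsk3 inhibitor CT-99021 and the MEK inhibitor PD0325901, plus vitamin C. All cells carried the WT genotype, and a single line stands for the genetic background.

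piRNAs are small RNAs bound by PIWI proteins, and they guide the cleavage of transposon transcripts and the silencing of transposon copies in germ cells. Helicases, Tudor proteins and mitochondrial membrane proteins make and load piRNAs in nuage, a granule next to mitochondria. In somatic cells and in most ES cell cultures, many genes of this pathway are kept low by DNA methylation of CpG-rich promoters and by the Polycomb complex PRC1.6, which contains E2F6 and the E-box binding pair MGA and MAX. The change to 2i+vitC removes most DNA methylation, so that the levels of these genes before and after the change are of interest. D0 differs from D6 and D13 in serum, inhibitors, vitamin C and days of culture as well as in methylation. The part of each was not tested.

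Promoters of genes whose RNA responded differently are shown first, to compare their CpGs, as stretches of 150 bases upstream of the gene that hold no annotated exon, 5′ to 3′ on the strand of the gene, from RefSeq on GRCm38.p6. CpGs are in capitals. Dazl, at chr17:50293637-50293786 on the minus strand, and Asz1, at chr6:18109062-18109211 on the minus strand, rose most among the 8 genes. Tdrkh, at chr3:94413094-94413243 on the plus strand, fell from D0 to D6, and Mael, at chr1:166238748-166238897 on the minus strand, did not pass the test at any step.
Dazl: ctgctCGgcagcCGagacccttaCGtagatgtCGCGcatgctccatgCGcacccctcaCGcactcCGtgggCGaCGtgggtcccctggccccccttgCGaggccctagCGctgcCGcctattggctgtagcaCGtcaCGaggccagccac
Asz1: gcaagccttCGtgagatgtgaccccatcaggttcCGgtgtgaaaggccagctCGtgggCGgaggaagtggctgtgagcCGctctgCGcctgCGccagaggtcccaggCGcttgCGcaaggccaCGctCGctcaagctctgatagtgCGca
Tdrkh: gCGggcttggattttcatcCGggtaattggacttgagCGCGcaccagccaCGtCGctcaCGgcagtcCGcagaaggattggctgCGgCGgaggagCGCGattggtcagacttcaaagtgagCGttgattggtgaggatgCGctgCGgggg
Mael: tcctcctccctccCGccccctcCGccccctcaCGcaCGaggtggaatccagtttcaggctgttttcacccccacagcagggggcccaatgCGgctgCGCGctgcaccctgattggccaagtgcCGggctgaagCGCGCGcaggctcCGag
These stretches held 15 CpGs in Dazl, 12 in Asz1, 15 in Tdrkh and 12 in Mael. Stretches of the same length held 10 CpGs in Mov10l1 and 9 in Tex19.1. The median was 11 in the 150 bases directly before the RefSeq start in 11591 promoters of genes with a row. Exons were not removed from those, so the windows differ. The stretches lie 16 bases from the start in Dazl, 3 in Mael and 85 in Mov10l1. The printed genes were picked for their different responses, and a relation of CpG number to response was not tested.

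Over the 250 bases upstream of the RefSeq start, 7 of the 8 genes had an entry, and Piwil2 had none. The number of CpGs there was 31 in Ddx4, 20 in Dazl, 19 in both Mov10l1 and Tdrkh, 18 in Mael and 15 in both Asz1 and Tex19.1. The median was 16 over the promoters of genes with a row and 6 over all 32851 promoters of the table. The members therefore lay around and above the middle of genes with a row, and Ddx4 stood highest among them. In Ddx4, however, the 165 bases nearest the RefSeq start lie within the annotated gene, and the other 85 held 3 CpGs. The windows also entered the annotated gene by 85 bases in Mov10l1, 16 in Dazl and 3 in Mael. The letters GCGGGAA, on either strand, which E2F proteins can bind, were found in 1 of the 7, Ddx4, at 136 bases upstream of the start. They were present in 7.2% of promoters of genes with a row. The E-box CACGTG, which reads the same on both strands, was found in Ddx4 at 29 bases, Mov10l1 at 246 bases and Mael at 223 bases upstream, and in 8.44% of promoters of genes with a row. Ddx4 held both, as did 0.656% of those promoters, and the windows did not overlap. Both matches in Ddx4 lie within the annotated gene, and the 85 bases outside it held neither. A match is a description of the letters only.

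**Figure D1:**
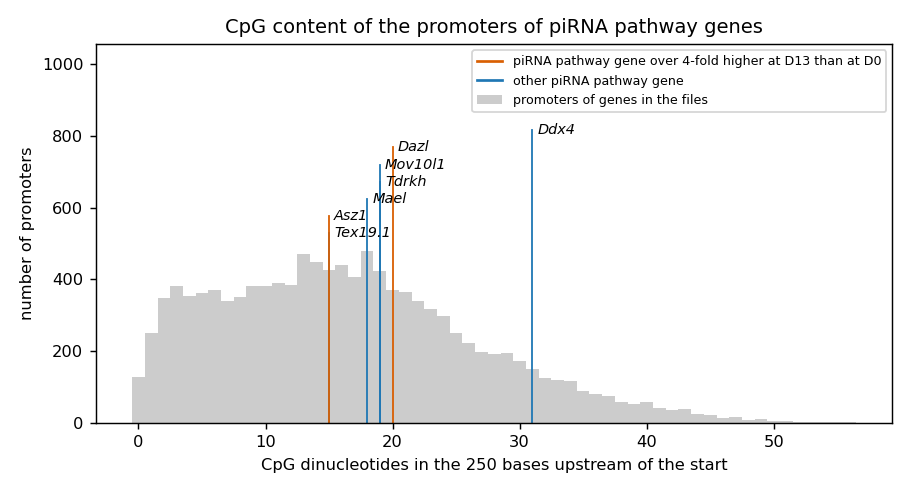
Number of CpGs in the 250 bases upstream of the RefSeq start (x axis) against the number of promoters of genes with a row (y axis, grey bars). Vertical lines, whose heights carry no value, mark 7 piRNA pathway genes, Asz1 and Tex19.1 both at 15, and Mov10l1 and Tdrkh both at 19. Orange lines, the genes over 4-fold higher at D13 than at D0, stand at 15 and 20, and Ddx4 stands highest at 31. Of the Ddx4 window, 165 bases lie within the annotated gene.

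The samples held between 73230745 and 83688345 reads on genes, so that 3 reads were 0.0344 to 0.042 CPM. Differences were tested with limma on the deposited log2 CPM over 12928 genes and transposon families, and a gene passed the test at an adjusted p under 0.05. A gene was called, by the rule of the study, when it also differed by more than 4-fold. All 3 comparisons share samples, since each day enters a pair of them. Marker genes of ES cells were all present, with a summed level of 2597 and 3329 CPM in D0, 4546 and 4919 in D6, and 3963 and 4046 in D13. Of these 8 genes, 3 rose, 2 fell and 3 did not pass the test from D0 to D13. Tfcp2l1 rose 9.03-fold, with a mean of 136 CPM in D0 and 1180 in D13, and Utf1 fell 7.8-fold. The sum thus does not stand for each gene. In bulk RNA, fewer cells with a transcript and less transcript per cell cannot be told apart.

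Marker lists of other cell types were counted gene by gene, since the sum of a list often followed 1 or 2 of its genes. Of the 7 primordial germ cell markers, all with a row, 3 rose, 1 fell and 3 did not pass the test from D0 to D13. Their sum was 119 and 247 CPM in D0, 783 and 686 in D6, and 746 and 785 in D13, of which Kit made up a mean of 28.5, 496 and 313 CPM and Dppa3 49.5, 114 and 345 CPM. Prdm1 fell 2.54-fold to D13 and Dnd1 fell 2.7-fold to D6. Of the 8 spermatogonia and spermatocyte markers, 5 had a row, with Zbtb16, Sohlh1 and Piwil1 absent, and 3 of the 5 rose and 1 fell from D0 to D13. Sohlh2 rose 17.1-fold, Stra8 8.07-fold and Sycp3 2.34-fold, beside the germline genes described below. The sum, between 392 and 481 CPM in all samples, was mostly Etv5, which fell 1.73-fold and had a mean of 416, 342 and 244 CPM in D0, D6 and D13.

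Of the 7 fibroblast markers, 5 had a row, with Col3a1 and Twist2 absent, and 1 rose and 2 fell from D0 to D13. Their sum was 140 and 40.1 CPM in D0, 245 and 355 in D6, and 173 and 174 in D13, mostly Vim, with a mean of 66.9, 292 and 163 CPM. Col1a1 fell 3.95-fold and Col1a2 14.5-fold to D13, and Thy1 fell 3.7-fold to D6. Of the 7 primitive endoderm markers, 4 had a row, and their sum of 72.1 to 127 CPM was mostly Lama1, at 74.4, 76.1 and 109 CPM, while Dab2 fell 25.3-fold from D0 to D13. Of the 2-cell-like markers, 3 of 7 had a row and all 3 fell to D13, with a sum of 10.4 and 8.34 CPM at D0 and 0.553 and 0.26 at D13. Only Zp3 of the 7 oocyte markers had a row. The single markers were named after their values were seen, and their part in the results was not tested.

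From D0 to D6, 2 of the 8 genes rose by more than 4-fold, Dazl and Asz1, while Ddx4 and Tdrkh fell by less than that and 4 did not pass the test. Without D0 replicate 2, Ddx4 and Tdrkh fell more, with log2 differences of -2.33 and -2.0. The 8 genes thus split 2 up and 2 down, and their median log2 difference was -0.28, against -0.01 over all features. Of all features tested, 13.7% passed upward and 10.2% passed downward, and 5.95% rose and 3.81% fell by more than 4-fold. From D0 to D13, 3 of the 8 rose, Dazl, Asz1 and Mov10l1, the first pair by more than 4-fold, and none of the other 5 passed the test. The median was 0.16, against -0.02. Of all features, 20.6% passed upward and 21.5% downward, and 7.39% rose and 5.9% fell by more than 4-fold. These shares are the background for counts of so few genes.

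**Figure D2:**
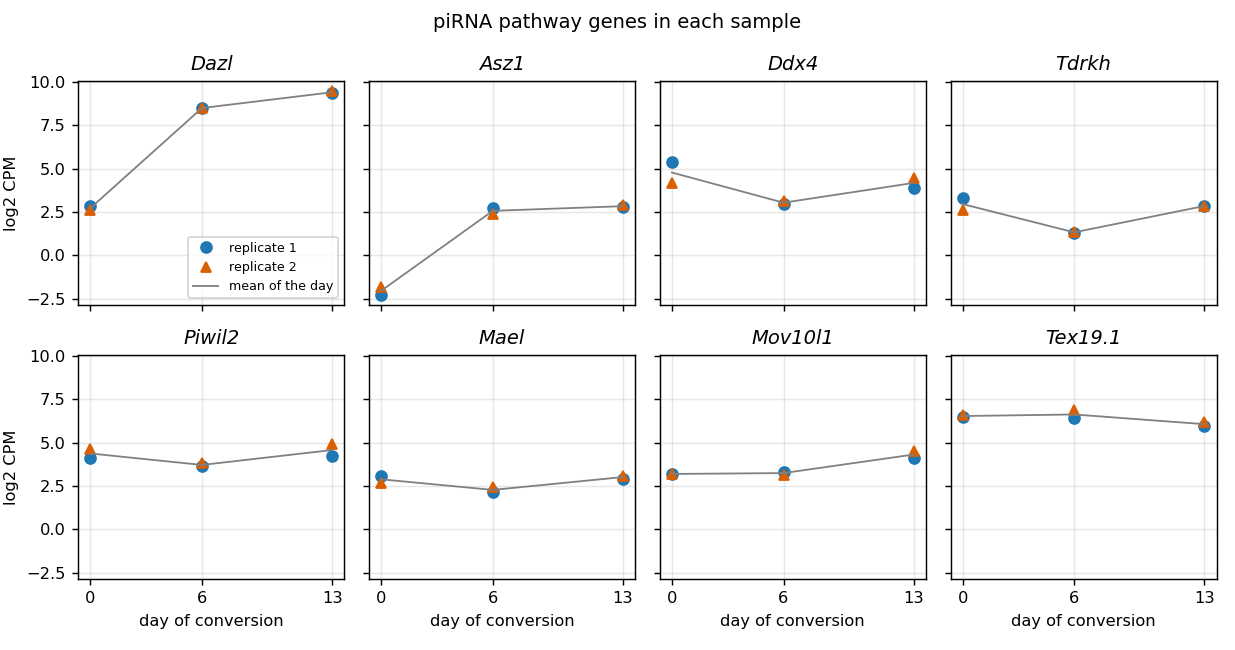
log2 CPM (y axis) of each piRNA pathway gene at day 0, 6 and 13 of conversion (x axis), with 1 panel per gene, circles for replicate 1, triangles for replicate 2 and a line through the mean of each day. Dazl and Asz1 climb from D0 to D6, Ddx4, Tdrkh, Piwil2 and Mael are lowest at D6, and Tex19.1 stays between 5.94 and 6.86.

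Dazl encodes an RNA-binding protein that regulates translation in germ cells, and it is counted with the pathway here because it is on the list. It lies on chromosome 17 of GRCm38, from 50279395 to 50293636 on the minus strand. Its log2 CPM was 2.83 and 2.64 in D0, 8.48 and 8.53 in D6, and 9.34 and 9.47 in D13. Every D6 sample lay above every D0 sample and every D13 sample above every D6 sample, and the replicates of a day lay closer to each other than to any other day. The gene rose 54.6-fold to D6 (log2 difference 5.77, 95% CI 5.31 to 6.23, adjusted p = 4.3e-06) and a further 1.87-fold to D13 (log2 difference 0.90, 95% CI 0.44 to 1.36, adjusted p = 0.045). This smaller second rise did not pass the test when D6 replicate 1, D6 replicate 2 or D13 replicate 1 was left out, with an adjusted p of 0.33, 0.39 and 0.11.

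Asz1 encodes GASZ, a protein of the outer mitochondrial membrane that organises nuage. It lies on chromosome 6 from 18050964 to 18109061 on the minus strand. The log2 CPM was -2.26 and -1.83 in D0, 2.76 and 2.38 in D6, and 2.80 and 2.89 in D13. These values rest on 16 and 24 reads in D0, 532 and 441 in D6, and 496 and 554 in D13. It was thus low but above the floor in serum, and all D6 and D13 samples lay far above both D0 samples. From D0 to D6 it rose 24.4-fold (log2 difference 4.61, 95% CI 3.74 to 5.48, adjusted p = 9.4e-05). From D6 to D13 the difference was 0.28 (95% CI -0.60 to 1.15, adjusted p = 0.69).

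The genes that were lower at D6 than on both other days were a DEAD-box helicase, a Tudor protein, a PIWI protein and a nuage protein. For 4 of the 8 genes, Ddx4, Tdrkh, Piwil2 and Mael, both D6 values lay below every D0 and D13 value, a pattern found in 8.16% of all features, with no test and noticed after the values were seen. Of the 17 other pathway genes with a row, 0 had it. Of the falls to D6, only those of Ddx4 and Tdrkh passed the test, and of the rises to D13 only that of Tdrkh.

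Ddx4, the germ cell helicase also called VASA, lies on chromosome 13 from 112598333 to 112652475 on the minus strand. It had a log2 CPM of 5.37 and 4.19 in D0, 2.96 and 3.12 in D6, and 3.90 and 4.46 in D13. The D6 samples were the lowest, and D0 replicate 1 stood above all others. It fell 3.35-fold to D6 (log2 difference -1.74, 95% CI -2.64 to -0.85, adjusted p = 0.012), and without D0 replicate 1 the difference was -1.16 with an adjusted p of 0.052. From D6 to D13 it was 2.21-fold higher, which did not pass the test (adjusted p = 0.12). Relative to D0, the D13 level differed by -0.60 (95% CI -1.49 to 0.30, adjusted p = 0.25), and without D0 replicate 2 by -1.19 with an adjusted p of 0.03. D0 replicate 1 also had the higher fibroblast marker sum and the lower primordial germ cell marker sum of the D0 samples, and their part in these values was not tested.

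Tdrkh encodes a Tudor protein of the mitochondrial membrane that serves in trimming piRNA ends. It lies on chromosome 3 from 94413273 to 94434668 on the plus strand. Its exons overlap those of Oaz3 on the other strand by 2255 bp, and as the strand setting of the counting is not given in the sources used here, reads of the pair cannot be told apart. The log2 CPM was 3.33 and 2.59 in D0, 1.30 and 1.36 in D6, and 2.85 and 2.85 in D13. Both D6 samples lay below all others, and the D13 values fell between those of D0. It fell 3.1-fold to D6 (log2 difference -1.63, 95% CI -2.42 to -0.85, adjusted p = 0.0092) and rose 2.86-fold to D13 (log2 difference 1.52, 95% CI 0.73 to 2.30, adjusted p = 0.048). The rise did not pass the test with any of the D6 or D13 samples left out, at an adjusted p of 0.067 to 0.3, nor with voom precision weights, at 0.056. The fall did not pass it without D6 replicate 1 or D6 replicate 2, at 0.063 and 0.05.

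Piwil2, the PIWI protein MILI, which binds piRNAs and cleaves transposon transcripts, was the only PIWI gene with a row, as Piwil1 and Piwil4 had none. It lies on chromosome 14 from 70372477 to 70429383 on the minus strand. Its log2 CPM was 4.12 and 4.65 in D0, 3.63 and 3.82 in D6, and 4.24 and 4.92 in D13, so that D0 and D13 overlapped. The difference was -0.66 to D6 (95% CI -1.38 to 0.05, adjusted p = 0.17) and 0.86 from D6 to D13 (95% CI 0.15 to 1.58, adjusted p = 0.14). Mael, a nuage protein required for transposon silencing in the male germline, lies on chromosome 1 from 166201201 to 166238747 on the minus strand. Mael had a log2 CPM of 3.08 and 2.70 in D0, 2.14 and 2.43 in D6, and 2.92 and 3.11 in D13. Its D0 and D13 values overlapped in the same way. The difference was -0.61 to D6 (95% CI -1.31 to 0.09, adjusted p = 0.19) and 0.74 from D6 to D13 (95% CI 0.04 to 1.43, adjusted p = 0.18).

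Mov10l1, the helicase that binds piRNA precursors, differed from these in its course. It lies on chromosome 15 from 88982909 to 89055152 on the plus strand. It had a log2 CPM of 3.22 and 3.18 in D0, 3.33 and 3.16 in D6, and 4.10 and 4.55 in D13. Both D13 samples lay above all D0 and D6 samples, which overlapped. From D0 to D13 it rose 2.18-fold (log2 difference 1.13, 95% CI 0.50 to 1.75, adjusted p = 0.011), while the step to D6 was 0.05 (95% CI -0.58 to 0.67, adjusted p = 0.92) and that from D6 to D13 was 1.08 (95% CI 0.45 to 1.70, adjusted p = 0.059).

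Tex19.1, a mammalian gene that restrains transposons in germ cells and is also active in pluripotent cells, lies on chromosome 11 from 121146143 to 121148319 on the plus strand. The log2 CPM was 6.48 and 6.61 in D0, 6.40 and 6.86 in D6, and 5.94 and 6.21 in D13. The D13 samples were the lowest, and D0 and D6 overlapped. It did not pass the test in any comparison, with a log2 difference of -0.47 from D0 to D13 (SE 0.23, adjusted p = 0.14) and -0.56 from D6 to D13 (95% CI -1.09 to -0.02, adjusted p = 0.19). Tex19.2 is its paralog, and whether reads were shared between both was not examined here.

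From D6 to D13, 2 of the 8 genes rose, Dazl and Tdrkh, and 0 fell. By limma, 0 of them passed the 4-fold rule, while 6 were higher and 1 was lower at an unadjusted p under 0.05, as were 10.2% and 14.5% of all features. All but Tex19.1 were higher at D13 than at D6, with a median log2 difference of 0.88 against -0.02 over all features. Of all features, 1.39% passed upward and 2.78% downward, and 0.379% rose and 0.719% fell by more than 4-fold.

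**Figure D3:**
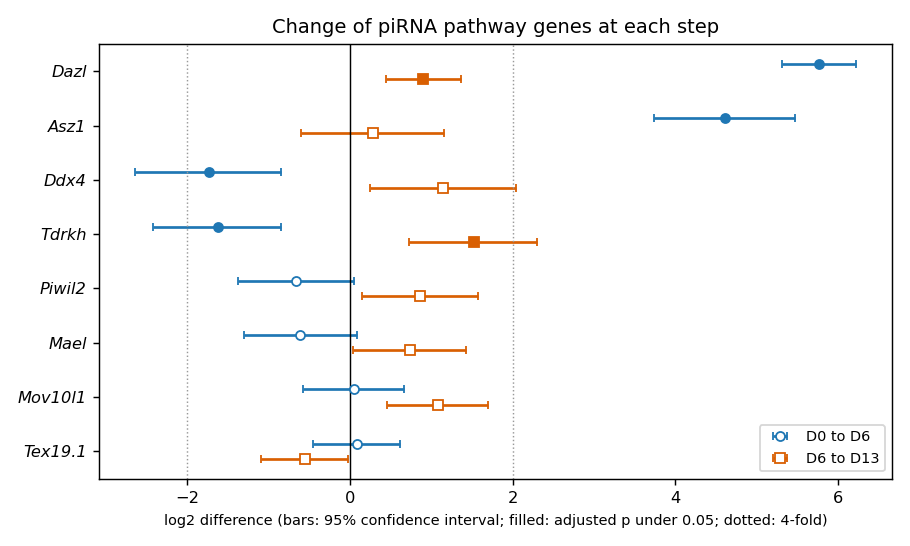
log2 difference (x axis) of each piRNA pathway gene from D0 to D6 (blue circles) and from D6 to D13 (orange squares), with 95% confidence intervals, filled where the adjusted p is under 0.05 and with dotted lines at 4-fold. Dazl and Asz1 lie at 5.77 and 4.61 for the first step and at 0.90 and 0.28 for the second, and the steps of Ddx4 and Tdrkh lie on opposite sides of 0, of which the second of Ddx4 did not pass the test.

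Whether the steps differed was tested directly, as the difference of D6 from D0 minus the difference of D13 from D6, which share the D6 samples. It was above 0 for Dazl at 4.87 (SE 0.35, adjusted p = 0.00071) and Asz1 at 4.33 (SE 0.66, adjusted p = 0.0066). It was below 0 for Tdrkh at -3.15 (SE 0.60, adjusted p = 0.015) and Ddx4 at -2.89 (SE 0.68, adjusted p = 0.034). For the other 4 genes it did not pass, with Piwil2 at -1.52, Mael at -1.34, Mov10l1 at -1.03 and Tex19.1 at 0.65. Of all features, 5.61% passed above 0 and 3.26% below 0. Dazl passed with any sample left out, whereas Asz1 did not without D6 replicate 1 (adjusted p = 0.12), Tdrkh did not without D6 replicate 1 or 2 (0.14 and 0.11), and Ddx4 did not without any of the D6 or D13 samples (0.063 to 0.18).

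Levels were compared between genes only per length, as RPKM, reads scaled by exon length and library size, over the union of the exons in the annotation. At D0, Tex19.1 led with 49.9 RPKM, ahead of Ddx4 at 9.87, Mael at 4.32, Piwil2 at 4.02, Mov10l1 at 2.2, Dazl at 1.74, Tdrkh at 1.31 and Asz1 at 0.0866. The neighbours Mael and Piwil2 overlapped between replicates, as did Dazl and Tdrkh at their edges (1.63 to 1.86 and 0.982 to 1.64). At D6, Dazl took the first place with 95.1 RPKM, ahead of Tex19.1 at 53.7, while Tdrkh was the lowest at 0.41. The other 5, Mael, Ddx4, Piwil2, Mov10l1 and Asz1, lay between 2.11 and 2.82 RPKM, and each overlapped its neighbour. At D13, Dazl reached 178 RPKM, above 98.0% of 11458 genes with a length, from above 22.8% at D0. Ddx4 at 6.13, Mov10l1 at 4.85, Mael at 4.68 and Piwil2 at 4.66 overlapped between replicates, and Asz1 at 2.53 stood apart from them and above Tdrkh at 1.17. Asz1 moved from above 1.6% of genes at D0 to above 30.1% at D13, and Mov10l1 from above 26.9% to above 43.7%. With the longest transcript as the length, Dazl at 2.24 RPKM stood above Mov10l1 at 2.22 at D0, Asz1 above Mov10l1 at D6, and Piwil2 above Mov10l1 and Mael at D13.

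**Figure D4:**
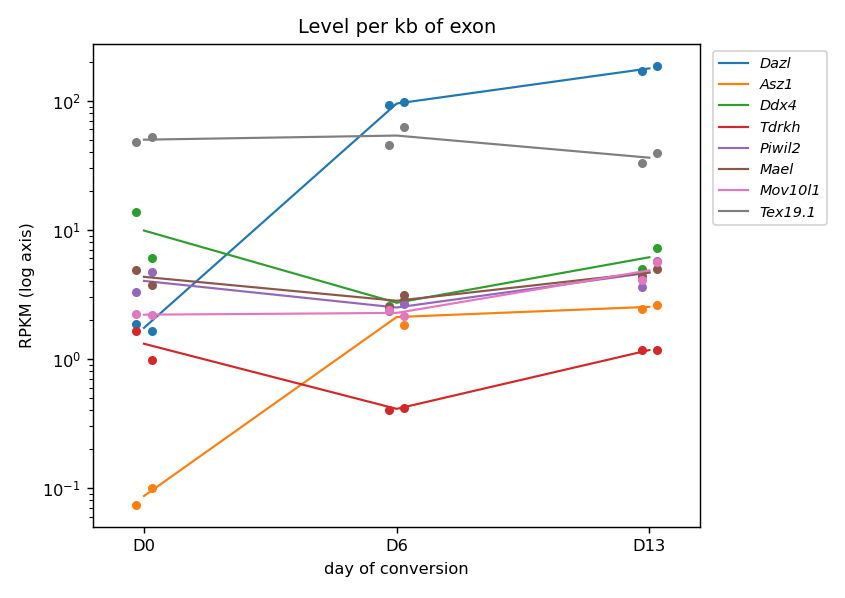
RPKM (y axis, log scale) of each piRNA pathway gene at D0, D6 and D13 (x axis), with points for replicates and a line through the mean of each day. Dazl crosses from 1.74 to 178 RPKM and passes Tex19.1, and Asz1 climbs from 0.0866 to 2.53.

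Of the other genes of the pathway, a row was found for 17 of a list of 25, and Piwil1, Piwil4, Tdrd6, Henmt1, Spocd1 and Nanos2 had none. The names in the tables lack every capital G, so Gpat2 and Gtsf1 were not looked up, and whether they had a row is not known. From D0 to D6, 5 of the 17 rose and 3 fell, with 2 and 2 past 4-fold. Of all features, 13.7% rose and 10.2% fell, and 5.95% and 3.81% did so past 4-fold. From D6 to D13, 2 rose and 0 fell, with 1 past 4-fold, where 1.39% of all features rose, 2.78% fell and 0.379% rose past 4-fold. By limma, at an unadjusted p under 0.05, 5 were higher and 1 lower, against the same 10.2% and 14.5%. From D0 to D13, 9 rose and 5 fell, with 6 and 2 past 4-fold. Over all features, 20.6% rose and 21.5% fell, and 7.39% and 5.9% did so past 4-fold. The single gene past 4-fold at the second step was lost without D6 replicate 2 or D13 replicate 1, and the count was 2 without D13 replicate 2. The median log2 difference from D0 to D13 was 1.32, against -0.02 over all features.

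Among the piRNA biogenesis genes, Fkbp6, a cochaperone that acts in piRNA loading, rose most. It had 123 and 261 reads in D0, 3017 and 3630 in D6, and 14992 and 10713 in D13. It rose 18.6-fold to D6 (adjusted p = 8.3e-05) and 4.28-fold from D6 to D13 (adjusted p = 0.023), the only one of the pathway past 4-fold at the second step. Pld6, a mitochondrial nuclease that cuts piRNA precursors, had a log2 CPM of 2.63 and 2.52 in D0, 3.33 and 3.32 in D6, and 5.35 and 4.77 in D13. It rose 3.33-fold at the second step (adjusted p = 0.023) and 5.6-fold from D0 to D13 (adjusted p = 0.00027). The other 2 of this group with a row did not pass the test in any comparison.

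Of 5 Tudor genes in this wider list with a row, 3 rose and 2 fell from D0 to D13. Stk31 had a log2 CPM of 3.34 and 3.59 in D0, 5.39 and 5.69 in D6, and 5.90 and 5.83 in D13, and rose 4.22-fold to D6 (adjusted p = 0.00037). Rnf17 had 5.28 and 5.29 in D0, 6.95 and 6.98 in D6, and 7.42 and 7.87 in D13, and was 5.13-fold higher at D13 than at D0 (adjusted p = 0.00011). Tdrd5, a Tudor protein that acts in the nuage of male germ cells, moved the other way. It had 770 and 908 reads in D0, 110 and 118 in D6, and 68 and 97 in D13, and fell 7.22-fold to D6 (adjusted p = 0.00069). Tudor genes thus did not share a direction, and Tdrkh, with its return at D13, followed neither course.

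Of 3 nuclear effectors with a row, 1 rose, 1 fell and 1 did not pass the test from D0 to D13. Dnmt3l, the cofactor of de novo DNA methylation, was the one that fell. Its log2 CPM was 8.20 and 7.97 in D0, 2.61 and 3.81 in D6, and 2.04 and 1.48 in D13. It fell 29.3-fold to D6 (adjusted p = 8.3e-05) and 80.1-fold to D13 (adjusted p = 2e-05). Btbd18, which promotes transcription of piRNA loci, had 0.78 and 0.44 in D0, 2.46 and 1.62 in D6, and 3.72 and 3.23 in D13 on the same scale. It was 7.29-fold higher at D13 than at D0 (adjusted p = 0.00071). The paralog Tex19.2 had 0.97 and 1.51 in D0, 2.17 and 2.30 in D6, and 3.54 and 3.66 in D13, and rose 5.13-fold to D13 (adjusted p = 0.0007) with the same doubt on reads shared with Tex19.1, and the difference between the paralogs was not tested.

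**Figure D5:**
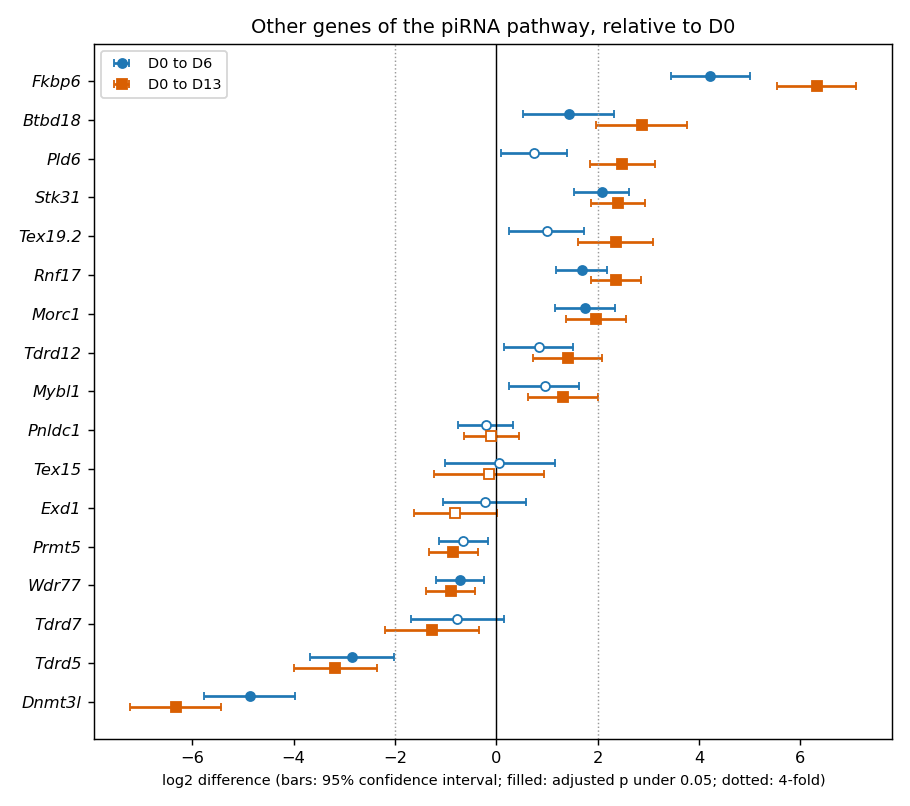
log2 difference from D0 to D6 (blue circles) and from D0 to D13 (orange squares) of the 17 other piRNA pathway genes with a row, with 95% confidence intervals, filled where the adjusted p is under 0.05 and with dotted lines at 4-fold. Fkbp6 lies highest and Dnmt3l lowest, at 6.32 and -6.32 for D13.

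Genes that set DNA methylation or belong to PRC1.6 were counted beside them. Of 21 such genes with a row, of 22 listed, 1 rose and 3 fell from D0 to D6, and 2 rose and 7 fell from D0 to D13. Of all features, 13.7% rose and 10.2% fell to D6, and 20.6% rose and 21.5% fell to D13. Of the 14 PRC1.6 genes among them, 1 rose, 2 fell and 11 did not pass the test from D0 to D13. The de novo methyltransferases Dnmt3b and Dnmt3a fell 13-fold and 5.22-fold from D0 to D13 (adjusted p = 6.9e-05 and 0.00018), and Tet3 fell 3.78-fold (adjusted p = 0.0024). Uhrf1, which maintains methylation, rose 3.13-fold (adjusted p = 0.00054). Of 21 meiosis genes with a row, of 23 listed, 6 rose from D0 to D6 and 10 from D0 to D13, where 13.7% and 20.6% of all features rose. By limma 0 of these genes fell in either, and none was lower at an unadjusted p under 0.05, where 16.3% and 25.9% of all features were lower. The largest were Smc1b, a cohesin subunit, at 34.3-fold, and the chromosome axis proteins Hormad1 and Hormad2 at 17.1-fold and 11.8-fold, with Stra8, an inducer of meiosis, at 8.07-fold (adjusted p = 0.0014, 1.3e-05, 0.00087 and 0.0013). The D0 samples differed in this list, as 8 of the 21 genes were more than 2-fold higher in replicate 2 than in replicate 1 and 0 the other way. Of all 12626 genes, 850, or 6.73%, were higher by that margin in D0 replicate 2 and 439 in D0 replicate 1. Smc1b had a log2 CPM of 0.31 and 3.49 in these samples, Hormad2 0.60 and 2.46, and Stra8 -0.45 and 0.73. Without D0 replicate 1 the rise from D0 to D13 was 11.4-fold for Smc1b, 6.18-fold for Hormad2 and 5.36-fold for Stra8, and without D0 replicate 2 it was 103-fold, 22.4-fold and 12.2-fold, all of which passed the test.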

How the data were processed

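RNA of WT J1 cells was sequenced at D0, D6 and D13, with 2 samples per day named by day and replicate number. The p-values set differences between day means against the spread between samples of a day, moderated with that of all features. The authors mapped reads onto mm10 with TopHat2 2.0.6 and RefSeq, counted them with HTSeq 0.6.1 and deposited log2 CPM after TMM and voom, combined with transposon families weighted over Bowtie 1.0.0 alignments. The authors' own count tables and precision weights were not used here. The reads behind a gene were read off its value, which is a multiple of reads plus the voom offset of 0.5.

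Days were compared with limma 3.58.1 in R 4.3.3, with a mean per day and a mean-variance trend over all 6 samples, and Benjamini-Hochberg adjustment over 12928 features. Tables used Python 3.11.15, numpy 2.4.6 and pandas 2.3.3, and figures matplotlib 3.10.9. Data of 12626 genes were also simulated, with 200 changed from D0 to D6. By the fit, 84% passed the test at a log2 change of 1, 100% at 2 and at 3, and 0.12% of unchanged genes, with no fold minimum. Every gene was simulated with the same spread. In the real D0 samples the SD was 0.83 for Ddx4 and 0.03 for Mov10l1, so these shares need not hold for single genes. An exact permutation test of 2 against 2 cannot go below 0.33, so none was run. Alternatives were voom weights recomputed from the reads, no trend, a block for the replicate number, a filter of 10 reads in 2 samples, each sample left out, only the days compared, centring on the median gene, other thresholds and the longest transcript.

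All members with a row are named, with the PIWI genes and the genes past 4-fold of the wider list. Of the regulator and meiosis lists, at most 4 genes with the largest difference from D0 to D13 are named. Markers were named without this rule, after their values were seen. Members and lists were chosen with earlier results of these data known. Alternatives added after seeing the data left out either D0 sample for 4 meiosis genes. 44 names were shared by several rows, which were tested but not named. Positions are from GENCODE vM21 on GRCm38, and the 8 members with a row all matched.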

Additional observations from a re-analysis of the deposited data

Results flagged for a closer look

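For 4 genes the change from D0 to D6 differed from the change from D6 to D13 by the limma contrast, as given above. The difference between the steps was 4.87 on the log2 scale for Dazl and 4.33 for Asz1, which rose early, and -2.89 for Ddx4 and -3.15 for Tdrkh, which were lowest at D6. The D0 samples of Ddx4, with 3249 and 1595 reads, differed more from each other than the D6 samples, with 611 and 737.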

How the results depend on the processing

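Over the log2 differences of the 8 genes, 406 of the values under the alternatives kept their direction and their side of the threshold, 26 no longer passed the test, 2 newly passed it and 6 changed sign. The 6 that changed sign came from leaving out a sample and never passed the test, with ranges of -0.04 to 0.13 for Mov10l1 and -0.14 to 0.32 for Tex19.1 from D0 to D6, and of -0.14 to 0.54 for Piwil2, -0.48 to 0.26 for Tdrkh and -0.06 to 0.31 for Mael from D0 to D13. Without D0 replicate 2, the falls of Ddx4 and Tdrkh from D0 to D6 were larger, at -2.33 and -2.0. Of the 8 genes, the number past 4-fold in either direction was 2 from D0 to D6. It was 0 from D6 to D13 and 2 from D0 to D13 whichever sample was left out. A 2-fold minimum gave 4 for the first step and 1 for the second. The steps differed for 4 genes, for 1 to 4 with a sample left out, 1 without D6 replicate 1 and 2 without D6 replicate 2, for 3 without the trend and for 2 at an adjusted p under 0.01. Of the wider list, 4 were past 4-fold from D0 to D6 (3 to 5 with a sample left out, 7 with a 2-fold minimum), 8 from D0 to D13 (8 to 9) and 1 from D6 to D13. That last count was 0 without D6 replicate 2 or D13 replicate 1 or at an adjusted p under 0.01, and 2 without D13 replicate 2 or with a 2-fold minimum. In each fit without a sample, the lone sample of its day was taken to vary like the others, and the cause of these losses was not tested. Same-numbered samples did not all deviate together (r of the replicate differences over genes, which are not independent replicates, of -0.13 for D0 and D6, 0.33 for D6 and D13 and 0.14 for D0 and D13). With the replicate block, the counts past 4-fold were 2, 0 and 2 and those of steps 4, as without it, and Mov10l1 newly passed the test from D6 to D13 at 1.08 (adjusted p = 0.043). The filter of 10 reads in 2 samples removed no feature. Over the longest transcript, Dazl at D13 had 228 RPKM in place of 178. Centring on the median gene, which moved values by at most 0.04, changed no call of these genes. Asz1 at D0 rests on 16 and 24 reads, which limits the precision of its rise.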

Other observations

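Among transposon families, which this pathway acts on in germ cells, L1Md_A had a log2 CPM of 10.09 and 10.68 in D0, 11.47 and 11.55 in D6, and 8.93 and 9.53 in D13. Its D6 samples were the highest and its D13 samples the lowest. Among the listed genes, the D13 samples were the highest in Dazl, Asz1 and Mov10l1, where the step from D6 passed the test only in Dazl. They were the lowest in Tex19.1, and in Ddx4, Tdrkh, Piwil2 and Mael the D6 samples were the lowest. IAPEz-int, an IAP family, had 7.26 and 6.98 in D0, 8.76 and 7.84 in D6, and 7.66 and 8.05 in D13, where D6 and D13 overlapped. These values were set beside the pathway genes with no test of a relation.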
